A study of Mus musculus with 3 samples.

Results

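The genes described here encode the subunits of the mitochondrial respiratory chain and of ATP synthase, with a few of their assembly factors, in whole lung tissue of tumour-bearing and normal mice. They were taken by symbol only, as genes whose names begin with Nduf followed by a, b, c, s or v, with Sdh followed by a to d, with Uqcr, with Cox4 to Cox8, or with Atp5. This gave 73 of the 8251 genes that have a probe set (a group of probes summarised to 1 value) with a single symbol. The subunits numbered 29 for complex I, 4 for complex II, 7 for complex III, 14 for complex IV and 14 for complex V. The name pattern also took 4 assembly factors (Ndufaf1, Ndufaf4, Sdhaf1, Sdhaf2) and Cox7a2l, a factor that joins complexes III and IV into supercomplexes. A further 10 probe sets carry several symbols of which at least 1 fits the pattern, and they were not named.

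The series holds 3 Affymetrix mouse arrays with 1 lung RNA sample each. The lung labelled B16-bearing, called the B16 lung here, came from a mouse or mice carrying B16, a mouse melanoma line. The lung labelled LLC-bearing, called the LLC lung, came from a mouse or mice carrying LLC, the Lewis lung carcinoma line. The third is a normal lung, called the control lung. Per the series' design text the tumour cells were placed under the skin of the back, and the lungs stand for the time before tumour cells arrive in them. The labels used here give no strain, sex, age, time after injection or number of animals per sample. With a single array in each group nothing could be tested, no error can be attached, and every difference describes these arrays alone.

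As background, electrons from NADH enter the chain at complex I and those from succinate at complex II. They pass through complex III and cytochrome c to complex IV, which reduces oxygen, while complexes I, III and IV pump protons across the inner mitochondrial membrane. Complex V, the ATP synthase, lets the protons flow back and makes ATP. Most subunits of these machines are encoded in the nucleus, as are all members here, and several complex IV subunits have a second isoform in heart and skeletal muscle. Tissues rich in mitochondria, such as heart muscle and brown fat, carry much of this RNA per cell, and lung is a mixture of many cell types.

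Signals are intensities on a linear scale after multiplication of each array by 1 factor. A floor was set at 23.6, the 40th percentile of all signals, and a difference is the difference of log2 signals with values under the floor set to it. A gene counts as measured where at least 1 of the 2 arrays compared exceeds the floor. Of the members, 69 were above the floor on at least 1 array and 65 on all 3. The 4 below it throughout were Ndufa12 and Ndufs4 of complex I and Cox7a1 and Cox8a of complex IV, for which no level can be given. The tissue was recognisable on every array, as Sftpc, the surfactant protein C of type 2 alveolar cells, read 7482 in the B16, 7298 in the LLC and 6206 in the control lung, and Scgb1a1, the club cell secretory protein, read 5927, 6219 and 5424. Of 5 measured type 2 genes 3 were above and 2 below control in each tumour-bearing lung. In the LLC lung 4 of 5 measured club and ciliated genes were above control. Only Cbr2, a club cell gene, was lower than control in each, with 70.0, 52.5 and 782. Signals are given below in this order of arrays. The probe sets of 18 members have names with an added letter (f, i, r or s), all taken here to mark possible binding of other genes. They are those of Ndufa3, Ndufa5, Ndufb2, Ndufb5, Sdhaf1, Sdhb, Uqcrb, Uqcrc2, Cox4i1, Cox6a1, Cox6b1, Cox6b2, Cox6c, Cox8b, Atp5d, Atp5e, Atp5g2 and Atp5md. The letter is i for Atp5e and r for Ndufb2, Cox6b1 and Cox8b. Probe sets bind with different strength, so levels of different genes were not compared.

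The main pattern was a small downward shift in the B16 lung. Of the 69 members measured there against control, 45 were lower and 24 higher, with a median log2 difference of −0.21, which is 1.16-fold. Over all 5968 genes measured in this comparison the median was −0.01, and 50.7% were lower. By at least 0.32 on the log2 scale, the smaller of the thresholds used below, 25 members were lower and 8 higher, or 36.2% and 11.6% of them. Among all genes 26.2% were lower and 20.7% higher by as much. Without the 4 members above the floor on only some arrays, whose direction the floor can fix, 22 of 65 were lower by at least 0.32 and 7 higher, with a median of −0.21.

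Many of the members are bright, and bright probe sets scatter less. Among the 1783 genes with a mean signal of at least 200, 15.3% were lower and 18.2% higher by at least 0.32 in the B16 lung, with a median of 0.05. Of the 40 members this bright, 9 were lower and 2 higher by that much, with a median of −0.09. The shift against other genes is thus present in this class too, but it is smaller in size.

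In the LLC lung the members lay close to control. Of 68 measured, 38 were lower and 30 higher, with a median of −0.04 against −0.0005 over all 6000 genes. By at least 0.32, 8 were lower and 6 higher, where 19.8% and 19.7% of all genes were. Both shares of the members, 11.8% and 8.82%, are thus below those of genes in general. Of the 40 bright members, 1 was lower and 1 higher by this much, while among all genes as bright 10.5% were lower and 13.4% higher.

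The comparison of the tumour-bearing lungs with each other does not use the control array except through scaling, the floor and the choice of probe sets. There 47 of 68 members were lower in the B16 lung and 21 higher, with a median of −0.11 against −0.02 over all genes. Of the 68, 18 were lower (26.5%) and 4 higher (5.88%) by at least 0.32, where 25.1% and 20.1% of all genes were. Of the 40 bright members 6 were lower and 1 higher by at least 0.32 (15% and 2.5%), against 15.2% and 16% of genes as bright. The shares of members lower by at least 0.32 were thus at the background, and the shares higher were below it. By any amount 69.1% of the 68 members were lower, against 52.3% of all genes. Of the 40 bright members 28 were (70%), against 46.3% of genes as bright.

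Large differences were few. At least 2-fold differences were seen for 3 of 69 members in the B16 lung against control (4.35%), all lower, where 7.96% of all genes differed that much in either direction. They were Cox6a2, Cox5a and Atp5o. No member of 68 reached 2-fold in the LLC lung against control (background 6.93%). In the B16 against the LLC lung 2 of 68 did, Cox6a2 and Cox5a (background 8.36%). Counts of 2-fold differences were thus below the share among all genes.

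The order of the arrays shows the same shift without any threshold. Among the 69 members above the floor on any array, the signal was lowest of the 3 in the B16 lung for 40, in the LLC lung for 11 and in the control lung for 18. Among all 6147 such genes the shares were 37.8%, 29.5% and 32.7%, against 58.0%, 15.9% and 26.1% of the members. This count holds Atp5j2 and Atp5k, each below the floor on 2 arrays, where signals have no reliable order. The control lung was the highest of the 3 for 33 members, or 47.8% against 33.8% of all such genes. Both comparisons with control use the same control array, so their values are given side by side and not as independent evidence.

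Markers of several cell types differed between the arrays as well. Of all genes, 26.2% were lower and 20.7% higher by at least 0.32 in the B16 lung, and 19.8% and 19.7% in the LLC lung. By any amount 49.3% were higher in the B16 and 49.9% in the LLC lung. Of 10 macrophage genes on the array 8 were measured. By at least 0.32, 6 of these were lower and 1 higher in the B16 lung, and 0 lower and 3 higher in the LLC lung. The summed signals of the list were 3765, 5631 and 5052. Of 11 neutrophil genes 9 were measured and all 9 were above control in both tumour-bearing lungs, with sums of 3054, 4628 and 1482. In the control lung 8 of these 9 were above the floor. B cell genes had sums of 351, 429 and 856, with 7 of 7 measured lower by at least 0.32 in both. All 7 were above the floor in the control lung, but only 2 were in the B16 and 4 in the LLC lung. Those under the floor in a tumour-bearing lung could only be lower there. Hepatocyte genes had sums of 264, 4935 and 209.6, with 10 of 10 measured higher by at least 0.32 in the LLC lung. Only 3 of these genes were above the floor in the control lung, and the others could only be higher in this comparison. Endothelial genes, all 10 measured, had medians of −0.01 and 0.03. The part of these cell types in the values of the members was not tested, and in whole tissue fewer cells of a type and less RNA per cell cannot be told apart.

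**Figure D1:**
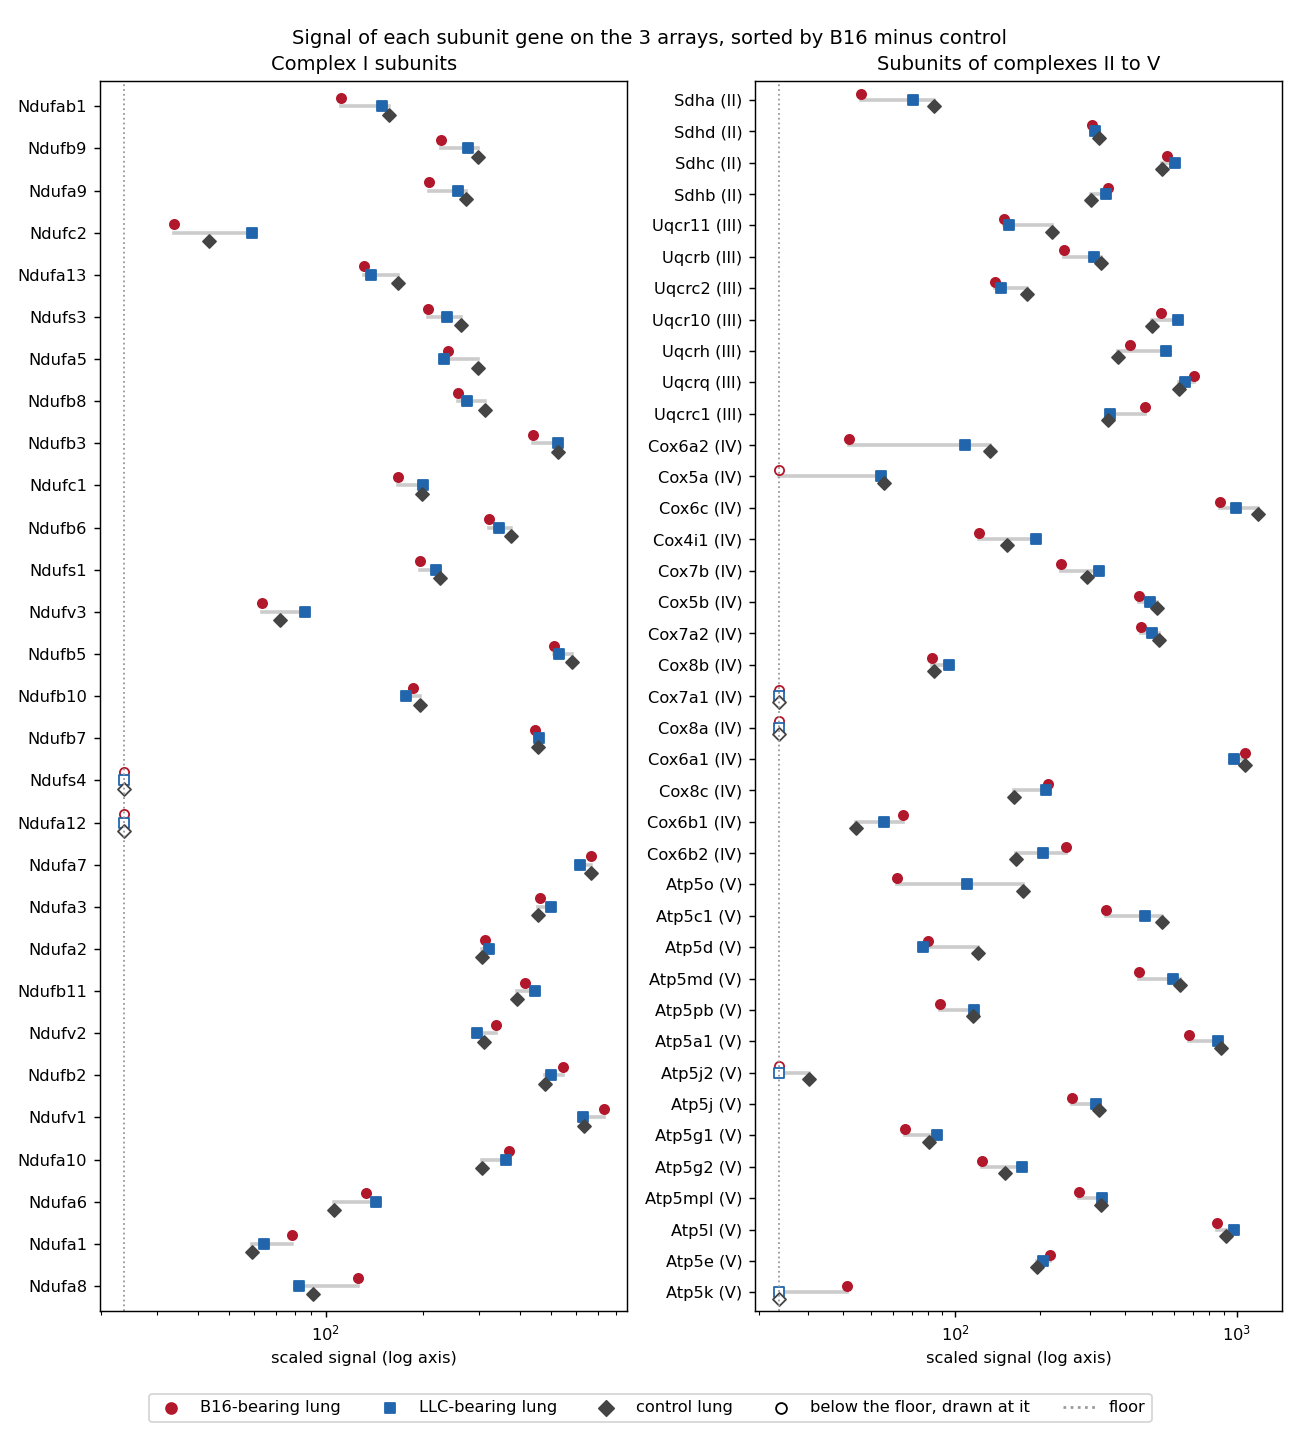
Scaled signal (log axis) of each of the 68 subunit genes in the B16 lung (red circles), the LLC lung (blue squares) and the control lung (dark diamonds), 1 array each, sorted within each complex by the difference of the B16 from the control lung. Open symbols lie below the floor of 23.6 and are drawn at it. Red circles lie at the left end for 11 of the 14 complex V genes (for Atp5j2 together with the LLC lung, both at the floor), while for complex III they lie at the left end for 3 of 7.

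Complex I, the NADH dehydrogenase, is the largest of the machines, and its median in the B16 lung was close to that of all members. Of 27 measured subunits 16 were lower in the B16 lung, with a median of −0.18, a lowest value of −0.50 and a highest of 0.47. In it 6 were lower (22.2%, against 26.2% of all genes) and 3 higher (11.1%, against 20.7%) by at least 0.32. Raising the floor to the 60th percentile made the B16 median −0.054. In the LLC lung 16 were lower as well, with a median of −0.05. There 1 was lower and 2 higher by at least 0.32 (3.70% and 7.41%, against 19.8% and 19.7% of all genes). The peripheral arm, which holds the NADH and iron-sulfur sites, and the membrane arm, which holds the proton channels, had medians of −0.09 (10 genes) and −0.13 (16 genes) in the B16 lung and −0.06 and 0.004 in the LLC lung. In the B16 lung the peripheral arm ranged from −0.38 to 0.33 and the membrane arm from −0.39 to 0.47.

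Ndufv1, the subunit that binds NADH and flavin, had signals of 729, 630.3 and 634. It was highest in the B16 lung, by 0.20 against control. Ndufa7, an accessory subunit of the peripheral arm, had signals of 668, 617 and 665, so that no array stood apart by more than 0.12. Ndufs1 and Ndufs3, core subunits of the peripheral arm, were lower in the B16 lung by small amounts, with −0.20 and −0.34, and had −0.05 and −0.14 in the LLC lung.

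The lowest complex I value in the B16 lung was that of Ndufab1, the mitochondrial acyl carrier protein, whose signals were 111.2, 149.2 and 157.3. Only the B16 array was low, at −0.50 against control and −0.42 against the LLC array. Ndufa8, an accessory subunit of the membrane arm, went the other way with 126, 82.7 and 91.0, or 0.47 and −0.14 against control. Ndufa1, a small membrane-arm subunit, read 78.8, 64.4 and 59.1 (0.41 and 0.12).

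Ndufa6, an accessory subunit, had signals of 133, 144 and 106, so that both tumour-bearing lungs were above control (0.33 and 0.44). Ndufc2, a small membrane-arm subunit, had the dim signals 33.7, 59.1 and 43.3, which lie on opposite sides of control (−0.36 and 0.45). The selection rule left 20 complex I subunits unnamed, among them Ndufs1, Ndufs3 and Ndufab1. They ranged from −0.50 to 0.28 in the B16 and from −0.36 to 0.26 in the LLC lung. In the B16 lung 5 of them were lower by at least 0.32 and 0 higher, where 26.2% and 20.7% of all genes were. The assembly factors were also below control. Ndufaf4 had 36.9 in the LLC and 47.0 in the control lung and did not reach the floor on the B16 array, at least 1.99-fold under control, and Ndufaf1 had 34.0, 37.2 and 44.9.

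Complex II, the succinate dehydrogenase, also belongs to the citric acid cycle, and its 4 subunits had medians of −0.01 and 0.05 in the B16 and LLC lung, both of which change sign with other settings. Sdha, the flavoprotein that oxidises succinate, was the exception with signals of 46.2, 70.8 and 83.8, that is 1.81-fold lower than control in the B16 and 1.18-fold lower in the LLC lung (−0.86 and −0.24). Sdhb, the iron-sulfur subunit, had 349, 344 and 303 (0.20 and 0.18). Sdhc and Sdhd, the membrane anchors, had 566, 603 and 542 and 306, 313 and 323.5. Sdha was thus low in the B16 lung while its 3 partners ranged from −0.08 to 0.20 there.

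The complex II assembly factors were lower in the LLC lung. Sdhaf1, which serves the iron-sulfur subunit, had signals of 166, 165 and 242, near each other in the tumour-bearing lungs and lower than control by 0.54 and 0.55. Sdhaf2, which attaches flavin to Sdha, had 71.2, 55.0 and 74.5, so that only the LLC array was low (−0.07 and −0.44).

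Complex III, the cytochrome bc1 complex, was split. Of 7 subunits 3 were lower in the B16 lung, all by at least 0.32 (42.9%, against 26.2% of all genes). The other 4 were higher, 1 of them by that much (14.3%, against 20.7%), and the median was 0.11. In the LLC lung 3 were lower, with a median of 0.02. There 1 was lower and 1 higher by at least 0.32 (14.3% each, against 19.8% and 19.7%). Uqcrc1, a core protein, had signals of 470.2, 354 and 349.6, so that the B16 lung was above control by 0.43 and above the LLC lung by 0.41. Its partner Uqcrc2 had −0.38 in the B16 and −0.31 in the LLC lung, so that the 2 core proteins differed in direction.

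Uqcrh, the hinge protein next to cytochrome c1, had 417, 559 and 379 and was highest in the LLC lung (0.14 and 0.56). Uqcr11, a small accessory subunit, had 149, 156 and 220.4, the lowest values of the complex in both tumour-bearing lungs (−0.57 and −0.50). Uqcr10 and Uqcrq, further small subunits, had 536, 619 and 498 and 705, 656 and 624.5. The ubiquinone-binding protein gene Uqcrb had −0.44 in the B16 and −0.08 in the LLC lung.

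Complex IV, cytochrome c oxidase, had a median of −0.21 over 12 measured subunits in the B16 lung, with 4 lower (33.3%) and 3 higher (25%) by at least 0.32, where 26.2% and 20.7% of all genes were. In the LLC lung the median was 0.05, with 0 lower and 3 higher (25%) by at least 0.32, where 19.8% and 19.7% of all genes were. These medians were unsteady, as the first was −0.081 with the mean of all probe sets of a gene and the second −0.083 with the floor at a signal of 100. The range in the B16 lung, from −1.66 to 0.59, was the widest of the complexes apart from that of complex V, from −1.49 to 0.81. Several of its genes form pairs of a muscle and a general isoform, and these are given pair by pair.

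Cox6a2, the heart and skeletal muscle isoform of subunit 6a, had signals of 42.1, 108.3 and 133. The B16 lung alone was low, 3.16-fold under control and 2.58-fold under the LLC lung. Cox6a1, the isoform of other tissues, had 1073, 975 and 1072, so that it was level between the B16 and control lung (0.0002). Cox7a1, the muscle isoform of subunit 7a, was below the floor on all arrays, and Cox7a2, its general partner, had 458, 499.6 and 529.5 (−0.21 and −0.08). Cox8b, the muscle isoform of subunit 8, had 82.9, 94.8 and 84.1 (−0.02 and 0.17), and its general partner Cox8a was below the floor throughout. The low value of Cox6a2 in the B16 lung was not shared by the Cox8b probe set used, which is among those taken here as possibly binding other genes. The remaining Cox8b probe set read only 6.91, 9.71 and 16.9, so no difference could be taken from it.

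Markers of other tissues varied between the lungs as well. Of all genes, 26.2% were lower and 20.7% higher by at least 0.32 in the B16 lung, and 19.8% were lower in the LLC lung. Of 16 cardiac muscle genes 11 were measured and 10 of these were lower by at least 0.32 in each tumour-bearing lung, with summed signals of 1563, 1333 and 2876. All 11 were above the floor in the control lung, but only 8 were in each tumour-bearing lung. The others, Tnnc1, Mb and Ckmt2, could only be lower. Myh6, the cardiac myosin heavy chain, had 67.9, 30.5 and 233, while Myl2, Myl3, Ryr2, Csrp3 and Sln were below the floor on all arrays. Of 15 skeletal muscle genes 8 were measured, with medians of −0.16 and −0.33 and sums of 759, 536 and 884, and 3 were lower and 1 higher by at least 0.32 in the B16 lung. Among these Myl1 was above the floor in the control lung alone and could only be lower. Acta1, Ckm, Myh1, Myh2 and Myh4 were below the floor throughout. The cardiac sum was lowest in the LLC lung, while Cox6a2 was lowest in the B16 lung. The skeletal sum was lowest in the LLC lung only through Pvalb. Pvalb read 242 in the B16 and 276 in the control lung, and its LLC signal did not reach the floor. Of 7 skeletal genes measured between the tumour-bearing lungs, 4 were higher and 3 lower in the B16 lung. Of 8 adipocyte genes 5 were measured, with sums of 841, 909 and 909. Adipoq, the adipocyte hormone adiponectin, had 37.0, 114 and 97.1 and Fabp4, a fatty acid carrier of adipocytes, had 82.8, 248 and 213, low in the B16 lung alone. The other 3 measured adipocyte genes were above control there, Lpl by 0.36, Pck1 by 0.11 and Lep by 0.05, and the median of the list was 0.05. Of 8 brown adipocyte genes 6 were on the array with a single symbol, and Ucp1, Cidea, Elovl3 and Zic1 were below the floor throughout. The part of any of these tissues in the values of Cox6a2 was not tested.

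Cox5a, a subunit on the matrix side of complex IV, had 54.5 and 56.0 in the LLC and control lung and did not reach the floor on the B16 array, at least 2.37-fold under control. Its partner Cox5b did not share this, with −0.21. Cox6c, a small membrane subunit, had 871, 992 and 1195, below control in both tumour-bearing lungs (−0.46 and −0.27). Cox7b, another small subunit, had 237, 325 and 293.5 and was low in the B16 lung alone (−0.31 and 0.15).

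Cox4i1, the general isoform of the regulatory subunit 4, had 121, 193 and 153 on its brightest probe set, on opposite sides of control (−0.34 and 0.33). Its second probe set gave 80.1, 62.5 and 41.3, a different order. Cox6b1, the general isoform of subunit 6b, had 65.1, 55.7 and 44.4 (0.55 and 0.33). Cox6b2 and Cox8c, known as testis isoforms, read 248, 205 and 165 and 213, 209.5 and 162, so both were above control in the tumour-bearing lungs. Of 3 Cox6b2 probe sets the other 2 were below the floor throughout, as was the second Cox8c probe set. Cox7a2l, the supercomplex factor, had 343, 346 and 308 (0.16 and 0.17).

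Complex V, the ATP synthase, showed the clearest shift. Of 14 measured subunits 12 were lower in the B16 lung, 8 of them by at least 0.32 (57.1%, against 26.2% of all genes) and 1 higher by that much, with a median of −0.34, or 1.27-fold. In the LLC lung the median was −0.03, with 7 of 13 lower and 3 of them by at least 0.32 (23.1%, near the 19.8% of all genes). The counts of lower genes in both lungs hold Atp5j2, with 12.9, 23.0 and 30.2. It was above the floor in the control lung alone and could only be lower in the others. In the B16 against the LLC lung 10 of 13 were lower, 7 by at least 0.32 (53.8%, against 25.1% of all genes), with a median of −0.34. The B16 signal was the lowest of the 3 for 11 of the 14 genes, Atp5j2 among them. Among the 7 bright subunits the medians were −0.32, −0.03 and −0.29, so the shift of this complex was nearly as large where signals are strong.

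By position in the enzyme, the catalytic head and central stalk (4 genes) had medians of −0.48 and −0.12 in the B16 and LLC lung. Those of the peripheral stalk, which holds the head still, were −0.38 and −0.03 (3 genes), those of the rotor ring −0.27 and 0.15 (2 genes), and those of the other membrane subunits −0.25 (5 genes) and −0.04 (4 genes). In the B16 lung all 4 positions thus had medians below 0. The LLC value of the rotor ring rests on 2 genes within 0.20 of control, and the second probe set of Atp5g2 gave −0.52 there.

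Atp5o, the peripheral stalk subunit that confers sensitivity to oligomycin, had signals of 62.1, 110.3 and 174. It was lower than control in both tumour-bearing lungs, 2.80-fold and 1.58-fold, and the B16 lung was 1.78-fold under the LLC lung. The other stalk genes had smaller differences of the B16 lung alone, namely Atp5pb with 88.4, 116.3 and 115.2 and Atp5j with 259, 317 and 324. Atp5a1, the alpha subunit of the catalytic head, had 674, 855 and 879 (−0.38 and −0.04). Atp5c1, the gamma subunit of the central stalk, had 344, 473 and 541 (−0.66 and −0.19), and its second probe set gave 320.6, 503 and 460.1. The B16 lung was thus lowest on both Atp5c1 probe sets.

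Atp5d, the delta subunit of the central stalk, had 80.3, 76.9 and 120.4 and was lower in both tumour-bearing lungs (−0.59 and −0.65). Of its 5 probe sets 4 were above the floor on some array, and all 4 were lower than control in both. Atp5l, the membrane subunit g, had 853, 978 and 916 (−0.10 and 0.09). Atp5md, a small membrane subunit, had −0.49 and −0.09. Atp5g2, a gene of the rotor ring subunit c, had 125, 172 and 149.7 (−0.26 and 0.20), while its second, dim probe set gave 41.2 in the B16 lung, 33.8 in the control lung and nothing over the floor on the LLC array. The subunits above control in the B16 lung were Atp5e, the epsilon subunit of the central stalk, with 217, 205 and 196 (0.15), and Atp5k, the membrane subunit e. Atp5k had 41.4 in the B16 lung and signals below the floor in the other 2 lungs, at least 1.75-fold under it. A gene above the floor on 1 array alone can only be higher there.

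**Figure D2:**
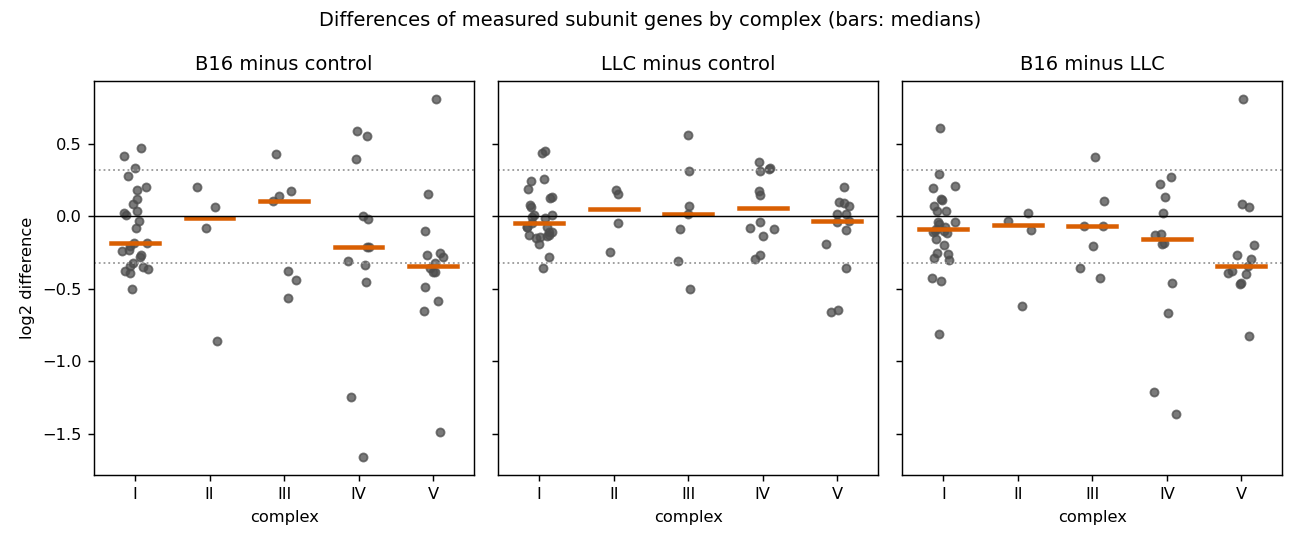
Log2 differences of the measured subunit genes (points) by complex, with medians (orange bars), for the B16 minus control, LLC minus control and B16 minus LLC lung. Dotted lines mark 0.32 in either direction. The complex V median is −0.34 in the first panel, −0.03 in the second and −0.34 in the third, while the complex III median is 0.11 in the first.

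The bases upstream of the start sites of some complex V genes are shown, from RefSeq's promoters on GRCm38.p6. These genes and the motifs were chosen after the values were seen, and a link of sequence to signal was not tested. All 3 measured peripheral stalk genes were chosen, which were all lower, with Atp5g2 of the rotor ring and Atp5k, above the floor in the B16 lung alone. Each line gives the 150 bases before the start on the gene's strand, and capitals mark matches on either strand to the NRF1 core GCGCATGC, the ETS core CCGGAAG that GABPA binds, the YY1 motif AAGATGG, the box CCAAT or the ESRRA core AAGGTCA. NRF1, GABPA, YY1 and ESRRA are known as regulators of nuclear genes for mitochondria.
Atp5o (chr16:91931631-91931780, minus strand): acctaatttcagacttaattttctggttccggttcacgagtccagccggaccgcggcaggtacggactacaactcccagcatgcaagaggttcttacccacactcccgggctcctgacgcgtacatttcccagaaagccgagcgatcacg
Atp5pb (chr3:105959264-105959413, minus strand): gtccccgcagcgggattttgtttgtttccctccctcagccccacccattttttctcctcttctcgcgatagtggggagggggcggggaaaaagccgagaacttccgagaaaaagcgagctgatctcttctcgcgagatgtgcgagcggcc
Atp5j (chr16:84834977-84835126, minus strand, 1 of 2 starts): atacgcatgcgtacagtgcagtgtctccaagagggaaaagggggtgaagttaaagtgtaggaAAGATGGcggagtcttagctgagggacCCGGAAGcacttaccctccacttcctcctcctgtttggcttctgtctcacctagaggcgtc
Atp5g2 (chr15:102671048-102671197, minus strand): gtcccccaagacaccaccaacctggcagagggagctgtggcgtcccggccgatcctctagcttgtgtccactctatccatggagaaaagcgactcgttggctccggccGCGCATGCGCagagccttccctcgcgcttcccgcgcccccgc
Atp5k (chr5:108434400-108434549, minus strand): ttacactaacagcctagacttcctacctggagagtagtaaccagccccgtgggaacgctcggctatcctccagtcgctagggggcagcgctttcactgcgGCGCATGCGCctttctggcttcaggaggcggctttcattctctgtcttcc

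In Atp5g2 and Atp5k the NRF1 core lies on both strands in overlapping matches, from base −42 to −33 and from −50 to −41 before the start. In the B16 lung Atp5g2 was below control on its brightest probe set, but its second probe set was above it (0.28). Atp5k was above the floor in the B16 lung alone and could only be higher there. The direction of either gene is thus uncertain. Atp5k also has an ETS and an ESRRA match after the start, outside the bases shown. Atp5o has no match to any of the 5 motifs in its 300-base window, Atp5pb has a YY1 match across the start, and the window of the other Atp5j start has none. Of the 73 members 60 have promoters in the table. The NRF1 core was present in 10 of these 60 genes (16.7%), against 3.05% of all 27025 genes in the table and 5.29% of the 6576 of them on the array. The ETS core was in 30.0% of the members against 9.93% and 17.1%, the YY1 motif in 13.3% against 7.28% and 7.85%, the ESRRA core in 8.33% against 5.38% and 4.38%, and CCAAT in 41.7% against 41.1% and 42.5%. A match of letters is a description and no sign of binding.

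Where a gene has more than 1 probe set, their agreement shows how far a single value can be trusted. This held for 20 members, but only 8 had at least 2 probe sets measured in a given comparison. In those 8 the gap between the highest and lowest log2 difference had a median of 0.35 for the B16 lung against control, ranging from 0.13 to 1.29, a median of 0.28 for the LLC lung against control and of 0.28 for the B16 against the LLC lung. The gap passed 0.5 for 2, 2 and 3 genes in these comparisons, and these were among Cox4i1, Atp5g2, Ndufa3 and Atp5d. Ndufa3, an accessory membrane-arm subunit, had 463, 502 and 457 on the probe set used and 28.3, below the floor and 38.3 on the other. The probe sets lay on both sides of control in the B16 lung for 5 of the 8 genes, though by under 0.05 on 1 side for Ndufa3, Ndufb2 and Ndufv2. The median gap of 0.35 exceeds the threshold of 0.32, so a single gene's difference near that threshold is no larger than the gap between probe sets of 1 gene.

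**Figure D3:**
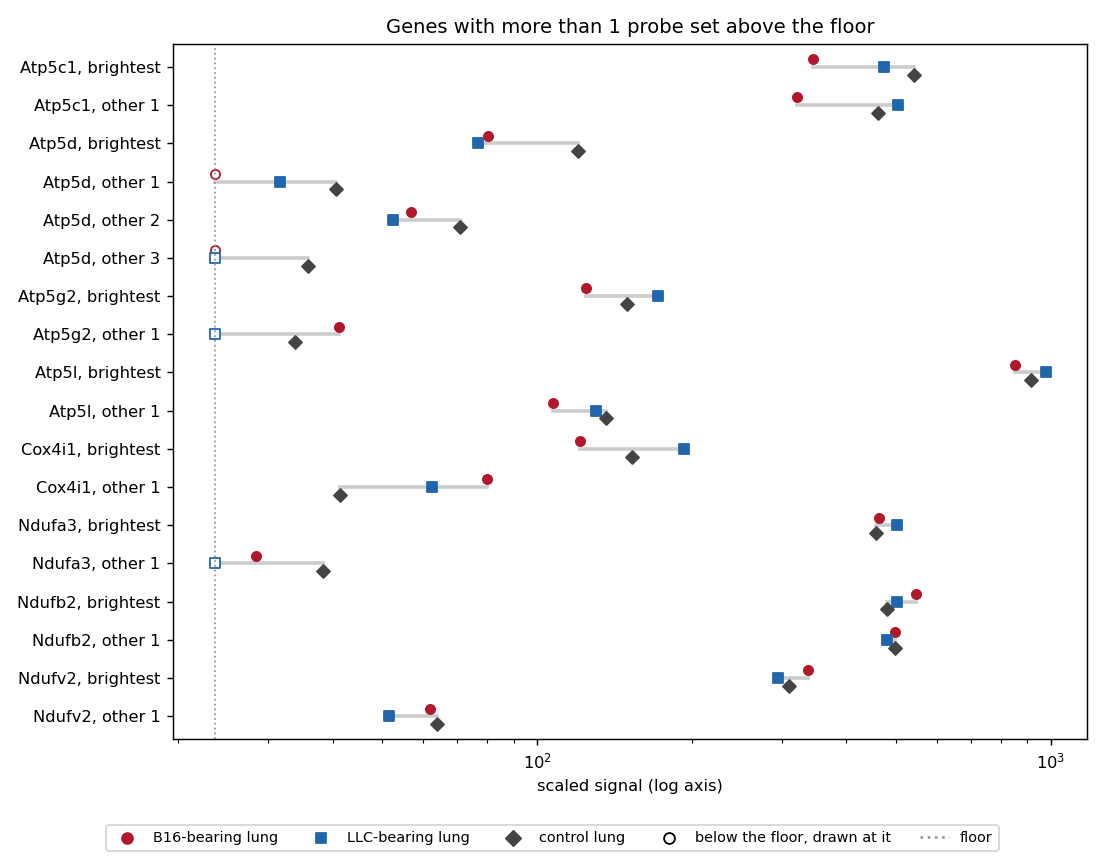
Scaled signal (log axis) of each probe set for the 8 members with more than 1 probe set above the floor, on the B16 (red circles), LLC (blue squares) and control (dark diamonds) array. Open symbols are below the floor of 23.6. Atp5c1, Atp5d and Atp5l keep the B16 lung below control on every probe set shown, while Cox4i1, Atp5g2, Ndufa3, Ndufb2 and Ndufv2 have probe sets on both sides of control.

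Genes of neighbouring mitochondrial functions were taken from lists. Of 3 measured genes of the chain outside the name pattern, Cycs, cytochrome c, was lower in both tumour-bearing lungs, with signals of 66.6, 80.5 and 199, or 2.99-fold and 2.47-fold under control. Cyc1, cytochrome c1 of complex III, was level with 755, 714 and 727, as was Atpif1, the inhibitor of ATP synthase, with 583, 596 and 619. Of 17 genes of the citric acid cycle and pyruvate dehydrogenase, 8 were lower by at least 0.32 and 0 higher in the B16 lung, with a median of −0.22, and 4 and 0 in the LLC lung, with a median of −0.18. The shares lower were 47.1% in the B16 lung, against 26.2% of all genes, and 23.5% in the LLC lung, near the 19.8% of all genes. By any amount, 11 of the 17 were lower in the B16 and 15 in the LLC lung (64.7% and 88.2%, against 50.7% and 50.1% of all genes). Of the 17, 16 were above the floor in the B16 and 15 in the LLC lung, and those under it could only be lower. Pcx, pyruvate carboxylase, had 51.7, 132 and 108, Sucla2, a succinyl-CoA ligase subunit, had 195, 163 and 271, and Pdhb, a pyruvate dehydrogenase subunit, had 197, 221 and 307.

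Fatty acid oxidation genes had medians of −0.15 (14 measured, 4 lower and 0 higher by at least 0.32) and 0.06 (15 measured, 3 lower and 1 higher). Acadm, the medium-chain acyl-CoA dehydrogenase, had 235, 204 and 320.3. Mitochondrial ribosomal protein genes had a median of −0.17 in the B16 lung, with 20 of 50 lower and 2 higher by at least 0.32, and of −0.02 in the LLC lung, with 8 of 53 lower and 4 higher. The shares lower were 40% and 15.1%, against 26.2% and 19.8% of all genes. Those of the fatty acid oxidation genes, 28.6% and 20%, were near these backgrounds. Mrps18a, with 473, 366 and 210.2, went against this. Between the tumour-bearing lungs 37 of 51 mitochondrial ribosomal protein genes were lower in the B16 lung (72.5%, against 52.3% of all genes). Their median was −0.07, against −0.02 over all genes. By at least 0.32, 13 were lower (25.5%, near the 25.1% of all genes) and 5 higher (9.80%, against 20.1%).

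Among carriers, porins and uncoupling proteins the 8 measured genes had medians of −0.04 and 0.12. Slc25a5, an ADP/ATP carrier, had 631, 658 and 357.5 and was higher in both (0.82 and 0.88), while Slc25a4, the carrier isoform of muscle, had 555, 596 and 754 (−0.44 and −0.34). Ucp3, an uncoupling protein, had 67.9, 53.8 and 25.3, the last just above the floor. Of the biogenesis regulators 7 and 6 were measured in the B16 and LLC lung, with medians of 0.03 and −0.13. By at least 0.32, 2 and 1 were lower (28.6% and 16.7%, near the 26.2% and 19.8% of all genes). Among them were Tfb2m, a mitochondrial transcription factor, with 53.0, 54.7 and 93.3, and Gabpa, with 84.1, 119.7 and 141.3. Antioxidant enzymes had medians of 0.01 and −0.07 over 6 genes, and Gsr, glutathione reductase, had 95.1, 41.0 and 124. Assembly factors outside the name pattern had medians of −0.10 in both lungs over 12 genes, and Foxred1, a complex I assembly factor, had 102, 38.6 and 58.8.

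**Figure D4:**
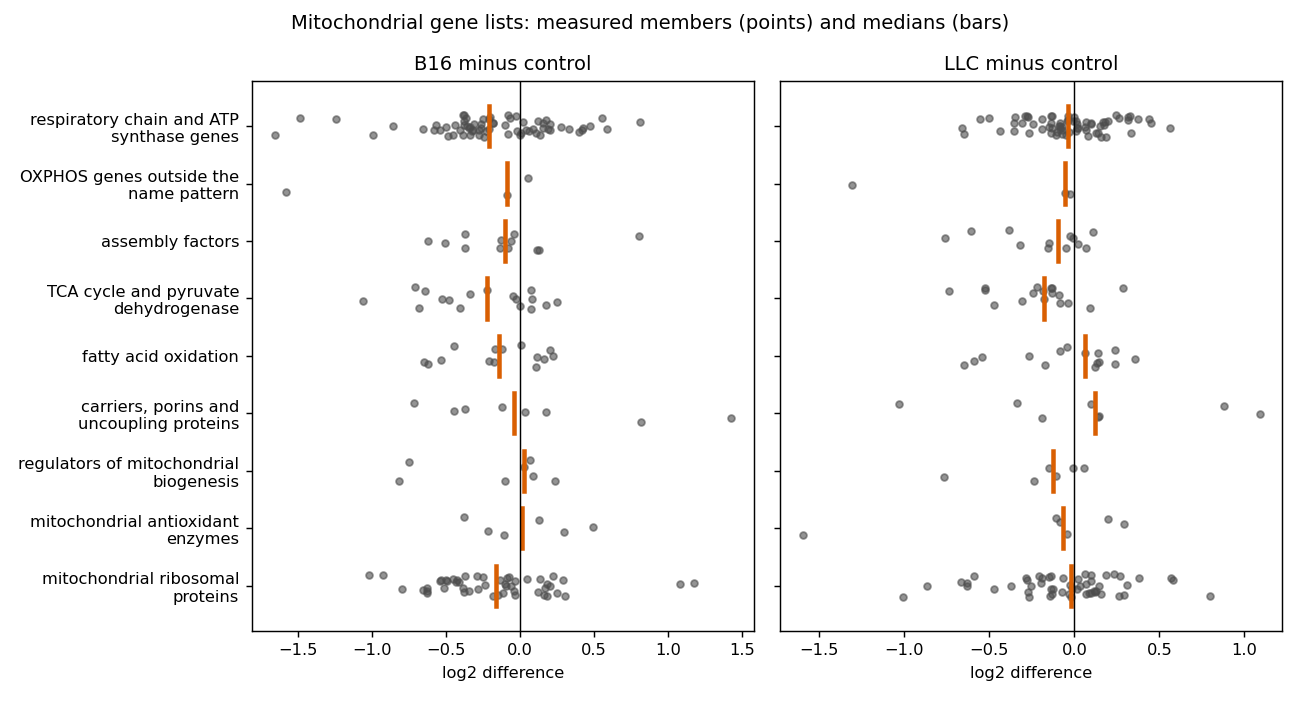
Log2 differences from control of the measured genes (points) and their medians (orange bars) for the 73 respiratory chain and ATP synthase genes and 8 other mitochondrial lists, in the B16 (left) and LLC lung (right). The medians of the members, the citric acid cycle and the mitochondrial ribosomal proteins are −0.21, −0.22 and −0.17 on the left and −0.04, −0.18 and −0.02 on the right.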

How the data were processed

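RNA of 3 lung samples was measured on Affymetrix mouse arrays. Per the labels' protocols, TRIzol-extracted RNA from frozen tissue was made into biotinylated cRNA. The deposited intensity values are linear, with 1 value per probe set and array, and 21.0%, 20.2% and 20.3% of them lie below 0 in the B16, LLC and control lungs, so they were not simple brightness readings, and how background was treated is not stated. The software is not named by the sources used here. Of 12488 probe sets, 66 controls were left out. Of the other 12422, 10833 have 1 gene symbol in GEO's platform annotation, 396 several and 1193 none. All 73 members matched RefSeq (GRCm38.p6) by gene ID.

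Each array was multiplied by 1 factor (0.987, 1.01 and 1) that set the median log2 ratio to control to 0 over probe sets brighter than the median and above 0 on all arrays, and log2 was taken of the deposited values after this scaling and the floor at the 40th percentile. A gene is represented by its brightest probe set, by mean over the 3 arrays. Counts use all measured genes, members included, as background. Members with the 5 largest differences each way, all 2-fold differences, complex IV isoforms, complex II subunits, the 2 brightest per complex and members whose probe sets disagree by over 0.5 are named (39 genes), as are up to 3 genes of each other mitochondrial list, and further genes were chosen after their values were seen. Members and lists were chosen with earlier results of these data known. The division of complexes I and V into parts, the motifs and the promoters shown were also chosen after the values were seen. The steps were tested on simulated arrays with planted changes. Python 3.11.15, numpy 2.4.6 and pandas 2.3.3 were used. The number of arrays limits the precision. Alternatives changed the scaling, the floor, the probe sets and the members counted.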

Additional observations from a re-analysis of the deposited data

Results flagged for a closer look

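Cox4i1 and Ndufc2 were on opposite sides of control, by at least 0.32 on the log2 scale each way, in the B16 and LLC lung. The difference of the B16 from the LLC lung was −0.67 for Cox4i1 and −0.81 for Ndufc2 on the log2 scale. With 1 array per group this difference was not tested. The second Cox4i1 probe set was above control in both lungs, and the Ndufc2 signals lay between 33.7 and 59.1, close to the floor of 23.6.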

How the results depend on the processing

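No paired analysis was possible because each group has 1 array. Of 225 recomputed counts and medians 201 stayed within 1.5 times (counts) or 0.1 (medians) of the reported value. The complex V median in the B16 lung ranged from −0.35 to −0.27 against control and from −0.36 to −0.27 against the LLC lung. Under each of the 3 other scalings (deposited values, a factor from all probe sets, quantile normalization) all 24 counts and medians stayed within these limits. Of the values of single named genes 645 stayed and 55 moved, 28 with the mean of all probe sets, 8 with each higher floor, 6 without probe sets that may bind other genes and 5 under quantile normalization. With the floor at the 60th percentile, 1 member differed by 2-fold in the B16 lung against control and 0 against the LLC lung, 9 differed by at least 0.32 in the LLC lung and 14 between the tumour-bearing lungs, and the complex I median in the B16 lung was −0.054. With the floor at a signal of 100 the 2-fold counts were 0 in both comparisons, the counts past 0.32 were 8 in the LLC lung and 11 between the tumour-bearing lungs, and the LLC medians of complexes II and IV were 0.15 and −0.083. A higher floor measures fewer genes and shrinks differences of dim ones. With the mean of all probe sets, the complex IV median in the B16 lung was −0.081 and 1 member differed by 2-fold between the tumour-bearing lungs. Without probe sets that may bind other genes, the complex II median in the LLC lung was −0.049. Further alternatives were added after seeing the data. Over members above the floor on all 3 arrays, 1 differed by 2-fold between the tumour-bearing lungs. Over members with a mean signal of at least 200, the median in the B16 lung was −0.091, 11, 2 and 7 members differed by at least 0.32 in the B16 lung, the LLC lung and between them, and 0 by 2-fold in any comparison. There the LLC medians of complexes II and IV were 0.15 and −0.084, and that of complex III between the tumour-bearing lungs was −0.21. The LLC lung's medians of complexes II and IV thus changed sign with the setting, as did those of complex II in the B16 lung (−0.08 to 0.06) and complex III in the LLC lung (−0.03 to 0.07). The cause was not tested beyond the construction of these settings.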

Other observations

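The 10 probe sets with several symbols of which 1 or more fits the name pattern did not share the downward shift. Of the 9 measured in each comparison, 4 were below control in the B16 lung, with a median of 0.10, 5 were lower in the LLC lung (median −0.003) and 4 in the B16 against the LLC lung (median 0.09). Their mean signals ran from 3.21 to 1740.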
